A study of Mus musculus with 6 samples.

Results

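The enzymes that break down amino acids were followed through mouse kidney at the ages labelled 2M and 24M. The 38 genes are a named list. It covers the shared steps of branched-chain amino acid breakdown, the leucine, valine and isoleucine branches and the propionyl-CoA steps after them. It also holds tyrosine and proline breakdown, and glycine, serine and methyl-glycine metabolism. The rest are aromatic amine and D-amino acid enzymes, lysine and tryptophan steps, and homocysteine handling. All 38 were found among the 12666 genes of the table that holds both ages. The samples were 6 bulk RNA-seq libraries of total RNA from kidney of WT mice aged naturally, 2 of 2M and 4 of 24M. The labels give no strain, sex or number of animals and do not say that each library is a separate animal, so a p-value here reflects the spread between libraries, which can be technical. Only 2M_1, 2M_2, 24M_1 and 24M_2 share a table and could be tested against each other. They are called the 2M pair and the first 24M pair, and 24M_3 and 24M_4, from a table made separately, the second 24M pair. Values of a pair are given in the order of the library numbers, and those of the second pair are set beside the test as levels.

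The breakdown of amino acids removes the amino group and feeds the carbon skeleton into the citric acid cycle, into glucose or into ketone bodies. Most of these enzymes work in the mitochondrial matrix, and several act as complexes of unlike subunits. In the kidney they are concentrated in the proximal tubule, which reabsorbs filtered amino acids, makes glucose and serine and oxidises glycine, proline and branched-chain amino acids. Inherited loss of many of them causes organic acidurias, tyrosinemia, alkaptonuria or homocystinuria in humans.

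Levels are given in FPKM, fragment counts scaled to gene length and library size, which allows different genes to be set side by side. The depth of each library is unknown. FPKM summed to between 286198 and 295286 per library in the tested table, and the second 24M pair had sums of 302628 and 335723. The Y-linked Ddx3y was present at 13.4 to 20.3 FPKM in all 6 libraries. All 20 proximal tubule markers were listed, and their mean log2(FPKM + 1) lay between 7.53 and 7.66 in the tested table and at 7.62 and 7.81 in the second 24M pair. Several lists of other cells and states differed more, given here over the genes listed in both tables. The 7 urothelium markers had a mean of 2.37 and 2.21 in the 2M pair, 0.109 and 1.62 in the first 24M pair and 0.129 and 0.159 in the second. The 5 inner medulla and thin limb markers had 4.17 and 4.10 in the 2M pair and 2.85 to 3.12 in the 24M libraries. The 6 leukocyte markers had 1.60 and 1.65 in the 2M pair, 2.41 and 2.31 in the first 24M pair and 4.63 and 2.73 in the second. The 5 red blood cell markers had 4.82 and 4.43, then 2.23 and 2.997, then 4.56 and 4.28 in the same order. The 4 adipocyte markers had 2.93 and 3.15, then 1.16 and 1.14, then 0.853 and 1.78. Immediate-early genes, which respond quickly to stress and handling, had a higher mean in the first 24M pair than in the 2M pair, as the leukocyte markers did. In the same order, 9 of them had 2.26 and 3.18, then 4.25 and 4.68, then 4.01 and 2.32. The part of these shifts in the results on the enzymes was not tested. In whole tissue, fewer cells of a type and less RNA per cell cannot be told apart.

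Of the 38 enzymes, 1 was higher in 24M and none was lower. The higher one was Hpd, 4-hydroxyphenylpyruvate dioxygenase of tyrosine breakdown, at 2.09 times its 2M mean. The test was limma on log2(FPKM + 1) with Benjamini-Hochberg adjustment over all 11437 genes tested and a threshold of 0.05. Over all of those genes, 0.761% were higher and 0.813% lower, 1.57% in all. At an unadjusted p below 0.05, 6 enzymes were higher (15.8% of the 38, against 6.96% of all genes) and none lower (against 9.94%). The first 24M pair lay above both 2M libraries for 12 enzymes, 31.6% of them against 20.8% of all genes, and below for 6, 15.8% against 29.6%. The median log2 change of the 38 was 0.02, and that of all genes tested was -0.02.

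The other 37 enzymes did not pass, and for most of them the intervals limit the size of a difference between the tested libraries. Like the p-values, the intervals reflect the spread between libraries, which can be technical. They do not cover the second 24M pair. The 95% interval of the log2 change lay within 0.5 either side of 0 for 32 of the 38 enzymes and within 0.25 for 16. These intervals reached a median of 0.19 to either side of the estimate, and the widest, that of Acadsb, reached 1.27. Summed over the 38 genes, the FPKM made up 0.654% and 0.651% of the library total in the 2M pair, 0.682% and 0.649% in the first 24M pair and 0.645% and 0.659% in the second. Levels ran from 0.587 FPKM for Bhmt in 2M_2 to 204 FPKM for Fah in 24M_4.

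**Figure D1:**
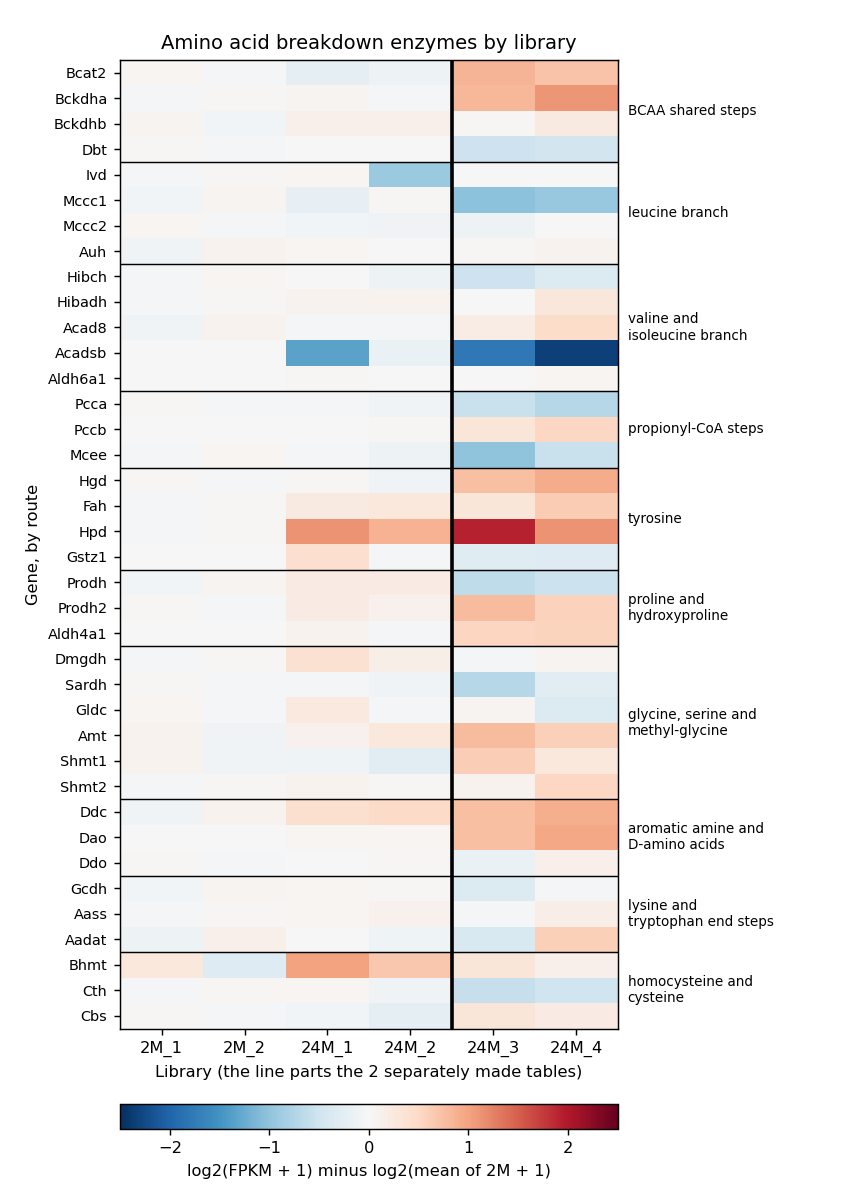
Level of each of the 38 enzymes (vertical axis, grouped by route) in each of the 6 libraries (horizontal axis), as log2(FPKM + 1) minus log2 of the 2M mean plus 1, from blue (lower) to red (higher). Left of the line, the strongest colours belong to Hpd and Bhmt in both libraries of the first 24M pair, Ivd in 24M_2 and Acadsb in 24M_1, and right of it both colours are common.

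**Figure D2:**
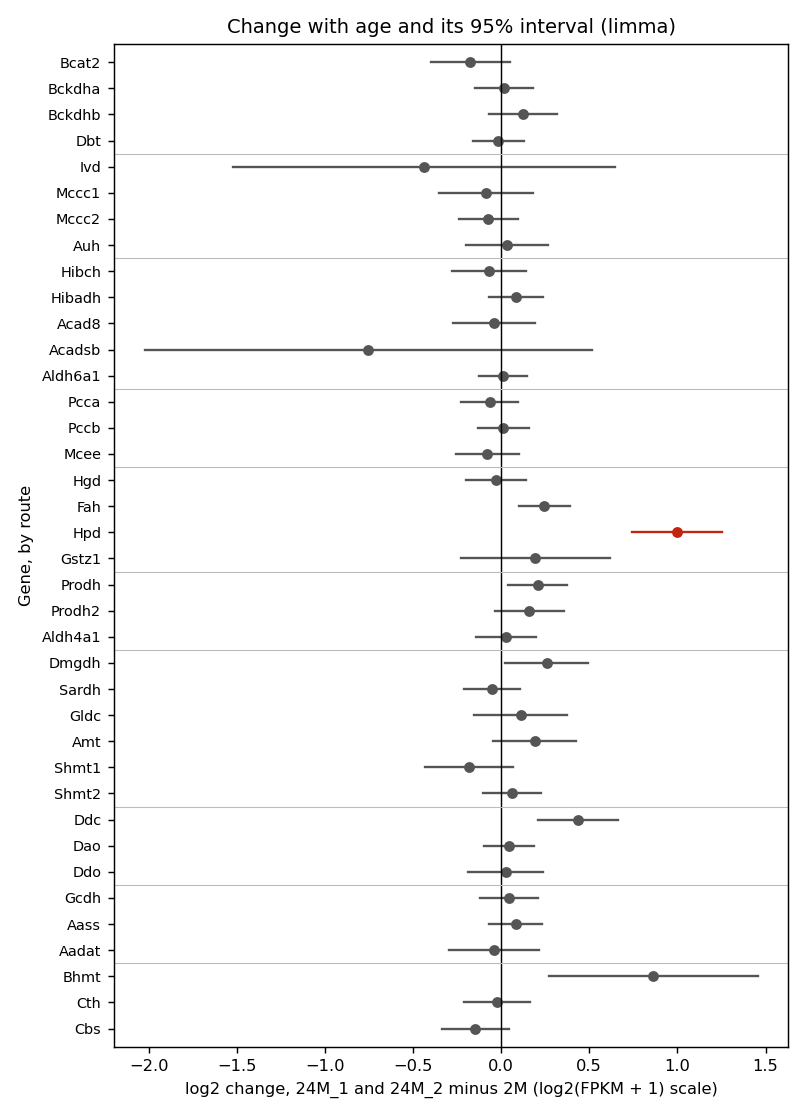
Log2 change between the 2M pair and the first 24M pair for each enzyme (points) with its 95% interval from limma (bars), grouped by route. Hpd, in red, is the single gene past the threshold, at 0.995, and the widest bars belong to Acadsb and Ivd.

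Hpd turns 4-hydroxyphenylpyruvate, the transamination product of tyrosine, into homogentisate, and it is the enzyme that nitisinone blocks in the treatment of tyrosinemia. It lies on chromosome 5 of GRCm38 (123171807 to 123182727, minus strand; ENSMUSG00000029445.13). Hpd stood at 11.1 and 11.5 FPKM in the 2M pair, 25.7 and 21.5 in the first 24M pair and 45.6 and 25.8 in the second. All 4 libraries of 24M lay above both of 2M, and 24M_3 was the highest. Of all genes, 20.8% lay above both 2M libraries in the first 24M pair and 32.1% in the second. The share above in both pairs was not computed, which also holds for the other genes described so below. The means of the tested table were 11.3 ± 0.311 FPKM at 2M and 23.6 ± 2.94 at 24M (SD, n = 2 each), and the log2 change was 0.995 ± 0.103 (SE; limma adjusted p = 0.0217). The call of Hpd was lost without 2M_1 or without 2M_2, as were the calls of all other genes, and also without 24M_1. Its limma adjusted p was 0.214 without 2M_1, 0.176 without 2M_2, 0.0513 without 24M_1 and 0.0261 without 24M_2, with log2 changes of 0.87 to 1.12. The annotated span of Hpd overlaps that of Psmd9, a proteasome assembly chaperone on the opposite strand, and strand use in counting is not given in the sources used here. Psmd9 stood at 3.65 and 3.41 FPKM in the 2M pair and at 2.54 and 3.51 in the first 24M pair.

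Hpd is also a liver enzyme. Of 14 hepatocyte markers, 8 were listed in the tested table and none passed the test, and Cps1, Tat, Cyp3a11 and Cyp1a2 were listed in neither table. The first 24M pair lay above both 2M libraries for 2 of the 8, below for 2 and overlapped for 4. Apoh, the plasma beta-2-glycoprotein, lay above in all 4 libraries of 24M, as Hpd did: 5.66 and 5.71 FPKM in the 2M pair, 8.94 and 13.5 in the first 24M pair and 17.7 and 14.7 in the second, with a ratio of 1.97 in the tested table (limma adjusted p = 0.131). Fga, a fibrinogen chain, overlapped between the ages of the tested table, at 12.1 and 6.79 FPKM and then 10.4 and 12.8, and stood at 17.8 and 15.2 in the second 24M pair. Ttr, transthyretin, had 106 and 158 FPKM in the 2M pair, 70.1 and 78.2 in the first 24M pair and 22.0 and 46.3 in the second. Albumin (Alb) had 10.3 and 3.17 FPKM in the 2M pair, 4.13 and 3.19 in the first 24M pair and 1.24 and 2.16 in the second, so its highest level was in a 2M library. Over these 8 genes the mean log2(FPKM + 1) was 3.81 and 3.42 in the 2M pair, 3.59 and 3.62 in the first 24M pair, and 3.12 and 3.44 in the second. The part of liver transcripts in the Hpd result was not tested.

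The enzymes after Hpd on the route to fumarate and acetoacetate did not pass the test. Hgd, the homogentisate dioxygenase lost in alkaptonuria, had 69.5 and 67.3 FPKM in the 2M pair and 69.9 and 64.2 in the first 24M pair, and its log2 change of -0.03 had a 95% interval of -0.20 to 0.14. The ages overlapped in the tested table, while the second 24M pair stood at 116 and 131 FPKM. Gstz1, the maleylacetoacetate isomerase, had 25.5 and 25.02 FPKM in the 2M pair, 34.3 and 24.5 in the first 24M pair and 20.2 and 19.9 in the second, so 24M_1 alone stood above the 2M level. Fah, the fumarylacetoacetase that ends the route, had 129 and 134 FPKM in the 2M pair, 154 and 158 in the first 24M pair and 161 and 204 in the second. All 4 libraries of 24M lay above both of 2M for Fah, but its log2 change of 0.25 ± 0.06 (SE) missed the threshold (limma adjusted p = 0.13). Within each library, the ratio of Hpd to Hgd was 0.159 and 0.171 in the 2M pair, 0.367 and 0.335 in the first 24M pair, and 0.392 and 0.197 in the second. Fah was the most abundant of these 4 transcripts in all 6 libraries.

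**Figure D3:**
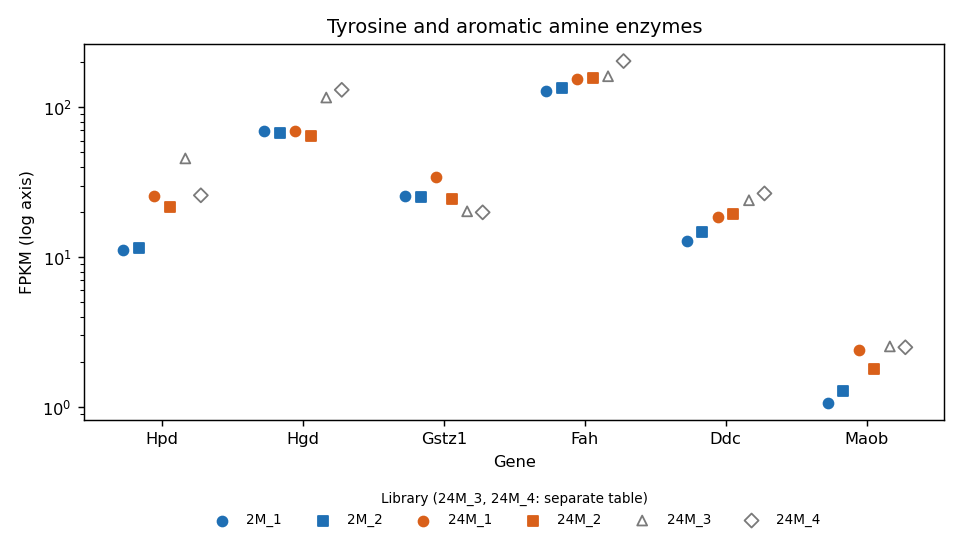
FPKM (log axis) of enzymes of tyrosine and aromatic amine metabolism in each library, with 2M in blue, the first 24M pair in orange and the second in open grey symbols. Hpd is at 11.1 and 11.5 FPKM in 2M and at 21.5 or more in every 24M library, while Hgd overlaps between the ages of the tested table and is higher in 24M_3 and 24M_4.

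The promoter windows of Hpd, Hgd and Fah are shown because the results on the tyrosine route turn on these genes. Each runs from 250 bases before to 50 bases after the annotated start, on the gene's own strand, from RefSeq on GRCm38.p6. The RefSeq start is the GENCODE one for Hgd and lies 4 bases downstream of it for Hpd. For Fah it lies 780 bases downstream, so that the Fah window is inside the gene as GENCODE annotates it. Hpd is at chr5:123182674-123182973 (minus strand), Hgd at chr16:37579903-37580202 (plus strand) and Fah at chr7:84605893-84606192 (minus strand). Capitals mark exact matches, on either strand, to the TATA box TATAAA, the CCAAT box CCAAT, the GC box GGGCGG, the C/EBP motif TTGCNNAA, the HNF4 motif CAAAGTCCA or the HNF1 motif.
Hpd: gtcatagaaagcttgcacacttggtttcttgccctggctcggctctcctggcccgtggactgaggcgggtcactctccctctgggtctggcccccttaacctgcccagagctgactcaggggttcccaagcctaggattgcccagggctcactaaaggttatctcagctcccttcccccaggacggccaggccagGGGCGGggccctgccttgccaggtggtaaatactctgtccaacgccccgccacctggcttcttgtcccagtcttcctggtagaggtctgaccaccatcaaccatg
Hgd: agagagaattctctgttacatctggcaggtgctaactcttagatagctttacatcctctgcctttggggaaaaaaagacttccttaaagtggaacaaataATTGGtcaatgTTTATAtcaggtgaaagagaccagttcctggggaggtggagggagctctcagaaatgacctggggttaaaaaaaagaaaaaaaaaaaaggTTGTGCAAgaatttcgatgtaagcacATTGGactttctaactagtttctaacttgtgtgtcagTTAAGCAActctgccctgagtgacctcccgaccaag
Fah: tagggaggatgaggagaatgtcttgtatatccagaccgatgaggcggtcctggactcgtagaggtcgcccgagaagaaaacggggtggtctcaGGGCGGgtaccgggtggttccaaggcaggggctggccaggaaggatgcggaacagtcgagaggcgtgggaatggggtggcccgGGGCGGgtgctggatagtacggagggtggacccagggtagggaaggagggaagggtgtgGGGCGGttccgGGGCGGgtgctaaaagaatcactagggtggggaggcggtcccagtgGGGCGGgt
The Hpd window held a single match, a GC box at position -55 from the start. The Hgd window held 5 matches, a TATA box sequence, 2 CCAAT boxes and 2 C/EBP matches, all on the opposite strand. The Fah window held 5 GC boxes and no other match, and no match overlapped another. Over 32851 promoter windows of the same length, 35.7% held the GC box, 37.4% the CCAAT box, 13.6% TATAAA, 10.8% the C/EBP motif, 0.475% the HNF4 motif and 0.00913% the HNF1 motif. A match describes letters in the window and does not show that a factor binds there.

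Ddc, the aromatic L-amino acid decarboxylase with which proximal tubule cells make dopamine, had the next smallest p after Hpd. It stood at 12.9 and 14.7 FPKM in the 2M pair, 18.4 and 19.5 in the first 24M pair and 23.9 and 26.6 in the second. All 4 libraries of 24M lay above both of 2M, and the log2 change of 0.43 ± 0.09 (SE) missed the threshold (limma adjusted p = 0.102). The peroxisomal D-amino acid oxidase Dao, which degrades neutral D-amino acids such as D-serine, had 70.6 and 71.9 FPKM in the 2M pair, 73.3 and 73.5 in the first 24M pair and 120.0 and 140.1 in the second. Its first 24M pair lay above the 2M pair by a small margin (log2 change 0.04, 95% interval -0.10 to 0.19). Ddo, its counterpart for D-aspartate, ranged from 6.31 to 7.97 FPKM over all 6 libraries.

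The shared steps of branched-chain amino acid breakdown did not pass the test in either direction. Bcat2, the mitochondrial aminotransferase that starts the route, had 9.45 and 8.80 FPKM in the 2M pair and 7.66 and 8.28 in the first 24M pair, which lay below (log2 change -0.17, 95% interval -0.40 to 0.05). The second 24M pair, at 17.4 and 15.6 FPKM, lay above both 2M libraries. The next step is the branched-chain keto acid dehydrogenase complex, built from the decarboxylase subunits Bckdha and Bckdhb and the transacylase core Dbt. Bckdha had 59.9 and 62.5 FPKM in the 2M pair and 63.9 and 59.9 in the first 24M pair, with 110.3 and 133 in the second. Dbt had 71.6 and 69.4 and then 69.6 and 69.7, with 48.9 and 50.7 in the second 24M pair. Bckdhb had 26.4 and 23.8 FPKM in the 2M pair and 27.3 and 27.4 in the first 24M pair, which lay above. Its log2 change was 0.12 (95% interval -0.07 to 0.32), and it had 25.5 and 29.5 FPKM in the second 24M pair. The 95% intervals of these 3 subunits lay between -0.16 and 0.32, so their levels were close at both ages in the tested table, while Bckdha and Dbt moved apart in the second 24M pair.

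In the leucine branch, Ivd had 1 library apart from the rest. Ivd, the isovaleryl-CoA dehydrogenase, had 67.2 and 69.7 FPKM in the 2M pair, 71.3 and 35.4 in the first 24M pair and 68.7 and 67.9 in the second. The other 5 libraries lay between 67.2 and 71.3 FPKM, and 24M_2 stood far below them. The log2 change of -0.44 had a 95% interval of -1.52 to 0.65 (limma adjusted p = 0.629). It was -0.93 without 24M_1 (limma adjusted p = 0.0391) and 0.06 without 24M_2 (0.816), and those 2 values bound its adjusted p over all alternatives. Mccc1 and Mccc2 encode the alpha and beta subunits of methylcrotonyl-CoA carboxylase, the biotin enzyme of this branch. Mccc1 had 23.1 and 25.6 FPKM in the 2M pair, 20.9 and 24.9 in the first 24M pair and 11.5 and 12.1 in the second, so that the last 2 stood below all the others. Mccc2 had 41.9 and 39.4 in the 2M pair, 39.02 and 38.2 in the first 24M pair and 37.02 and 40.7 in the second. Auh, the methylglutaconyl-CoA hydratase, which also binds AU-rich RNA, had 8.46 to 9.62 FPKM over all 6 libraries.

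In the valine and isoleucine branches, Acadsb had the widest interval of all the enzymes. Acadsb, the short and branched chain acyl-CoA dehydrogenase of isoleucine breakdown, had 33.1 and 32.3 FPKM in the 2M pair, 12.4 and 28.9 in the first 24M pair and 8.74 and 5.68 in the second. All 4 libraries of 24M lay below both of 2M, and 24M_2 stayed close to the 2M level. Of all genes, 29.6% lay below both 2M libraries in the first 24M pair and 40.5% in the second, and the share below in both was not computed. The log2 change in the tested table was -0.75, with a 95% interval of -2.02 to 0.52 (limma adjusted p = 0.485). It was -1.34 without 24M_2 (limma adjusted p = 0.0189) and -0.17 without 24M_1 (0.446), and the alternatives gave adjusted p-values between 0.0189 and 0.696. The annotated span of Acadsb overlaps that of the growth factor receptor gene Fgfr2. Aldh6a1, the methylmalonate semialdehyde dehydrogenase, was among the most abundant of the 38, with 138 and 139.9 FPKM in the 2M pair, 141 and 139 in the first 24M pair and 139 and 145 in the second. Its log2 change of 0.01 had a 95% interval of -0.13 to 0.15. Acad8, the isobutyryl-CoA dehydrogenase, had 11.02 and 12.7 FPKM in the 2M pair, 11.6 and 11.3 in the first 24M pair and 13.6 and 16.7 in the second, which was above the rest. Hibch, the hydrolase of 3-hydroxyisobutyryl-CoA, had 13.99 and 14.9, then 14.3 and 13.1 and then 9.75 and 11.2, below the rest. Hibadh, the dehydrogenase after it, had 40.2 and 41.5 FPKM in the 2M pair and 43.2 and 43.5 in the first 24M pair, which lay above. Its log2 change was 0.08 (95% interval -0.07 to 0.24), and it had 40.6 and 49.9 FPKM in the second 24M pair.

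None of the propionyl-CoA enzymes, where isoleucine and valine breakdown meet, passed the test. Pcca and Pccb encode the biotin-bearing alpha and the beta subunit of propionyl-CoA carboxylase. Pcca had 34.7 and 33.6 FPKM in the 2M pair, 32.98 and 32.2 in the first 24M pair and 22.96 and 20.3 in the second. Pccb had 89.7 and 87.5 in the 2M pair, 88.1 and 90.7 in the first 24M pair and 110.0 and 126 in the second, so the subunits departed in opposite directions there. Mcee, the methylmalonyl-CoA epimerase, had 104 and 112 FPKM in the 2M pair, 106 and 98.2 in the first 24M pair and 53.5 and 72.7 in the second. The log2 changes of these 3 genes lay between -0.08 and 0.01, with all interval limits between -0.26 and 0.16.

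Of the proline enzymes, Prodh and Prodh2 had higher values in the first 24M pair without passing the test. Prodh, the proline dehydrogenase of the inner mitochondrial membrane, had 80.7 and 88.2 FPKM in the 2M pair and 97.8 and 97.3 in the first 24M pair (log2 change 0.21 ± 0.07 SE, limma adjusted p = 0.225). The second 24M pair went the other way, with 53.8 and 58.1 FPKM, below both 2M libraries. Prodh2, which oxidises hydroxyproline from collagen turnover, had 16.5 and 15.9 FPKM in the 2M pair, 18.9 and 17.5 in the first 24M pair and 28.7 and 24.6 in the second. All 4 libraries of 24M lay above both of 2M for Prodh2 (limma adjusted p = 0.382). Aldh4a1, the dehydrogenase that acts after both, had 47.6 and 46.4 FPKM, then 49.9 and 46.1 with overlapping ages, and 68.4 and 69.2 in the second 24M pair.

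None of the 6 glycine, serine and methyl-glycine enzymes passed. Dmgdh, the dimethylglycine dehydrogenase of choline breakdown, had 36.3 and 38.3 FPKM in the 2M pair and 48.7 and 41.3 in the first 24M pair, with 36.4 and 39.2 in the second (log2 change 0.26, limma adjusted p = 0.261). Sardh, which takes sarcosine on to glycine in the next step, had 62.05 and 58.9 in the 2M pair, 59.6 and 56.97 in the first 24M pair and 36.4 and 50.4 in the second, the lowest. Gldc and Amt are the decarboxylase and the aminomethyltransferase of the glycine cleavage system. Gldc had 20.2 and 19.03 FPKM in the 2M pair, 23.3 and 19.3 in the first 24M pair and 20.6 and 15.2 in the second. Amt had 22.7 and 20.1, then 23.2 and 25.9 and then 37.5 and 32.8, so all 4 libraries of 24M lay above both of 2M. Serine and glycine are interconverted by the cytosolic Shmt1 and the mitochondrial Shmt2. Shmt1 had 12.7 and 11.2 FPKM in the 2M pair, 10.99 and 9.87 in the first 24M pair, which was lower, and 18.8 and 14.7 in the second, which was higher. Shmt2 had 41.7 and 43.7, then 45.8 and 43.5 and then 45.3 and 61.6. Shmt1 was the lower of the pair in all 6 libraries, at 0.227 to 0.416 of the level of Shmt2.

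The lysine and tryptophan enzymes did not pass. Gcdh, the glutaryl-CoA dehydrogenase, had 137 and 149.7 FPKM in the 2M pair, 148 and 147 in the first 24M pair and 112 and 138 in the second. Aass, the synthase that opens lysine breakdown, had 99.8 and 103 and then 105 and 109.7 in the tested table. Aadat, which transaminates aminoadipate and kynurenine, had 76.2 and 91.00 in the 2M pair and 84.4 and 77.4 in the first 24M pair, and its levels in the second, 63.9 and 126 FPKM, lay on both sides of these.

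Of the homocysteine enzymes, Bhmt was the least abundant of all 38. Bhmt, the betaine-homocysteine methyltransferase best known from liver, had 1.38 and 0.587 FPKM in the 2M pair, 2.96 and 2.16 in the first 24M pair and 1.45 and 1.15 in the second. The first 24M pair lay above both 2M libraries, while the second overlapped them. The log2 change of 0.86 missed the threshold (95% interval 0.27 to 1.46, limma adjusted p = 0.175), and at such low levels the log2(FPKM + 1) scale understates a change. Cbs and Cth are the synthase and lyase that pass homocysteine sulfur to cysteine and also make hydrogen sulfide. Cbs stood at 47.9 and 46.4 FPKM in the 2M pair, 44.8 and 40.2 in the first 24M pair and 58.6 and 54.4 in the second (log2 change -0.15, 95% interval -0.34 to 0.04). Cth stood at 70.9 and 76.00, then 75.8 and 68.8 and then 48.9 and 51.8 (log2 change -0.02, 95% interval -0.21 to 0.17).

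Other enzymes of the same routes were read from the same fit. Of 81 tested, 2 were higher and 1 lower in 24M, against 0.761% and 0.813% of all genes, and their median log2 change was 0.03. Gpt, the cytosolic alanine aminotransferase, was higher, with 6.40 and 7.04 FPKM in the 2M pair, 10.9 and 10.7 in the first 24M pair and 13.9 and 15.5 in the second (limma adjusted p = 0.0449). Glyctk, the glycerate kinase of serine breakdown, was also higher, with 23.5 and 22.7 and then 35.2 and 42.4, and 30.8 and 51.03 in the second 24M pair (limma adjusted p = 0.0449). Phgdh, which opens serine synthesis, was lower, with 8.28 and 7.16 FPKM in the 2M pair and 2.85 and 3.52 in the first 24M pair (limma adjusted p = 0.0298). It had 3.87 and 1.83 in the second. These genes are named for their calls, which rest on the order in the first 24M pair. In the second, 32.1% of all genes lay above both 2M libraries and 40.5% below. The 4 libraries of 24M all exceeded both 2M libraries for Gpt and Glyctk and all fell short of them for Phgdh, but no call was made without 2M_1 or without 2M_2. Without 24M_1 the calls of Gpt and Phgdh ended, and without 24M_2 those of Gpt and Glyctk did. Over the alternatives the adjusted p ran from 0.0360 to 0.254 for Gpt, 0.0353 to 0.269 for Glyctk and 0.0233 to 0.230 for Phgdh.

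The second 24M pair held the same enzymes at other relative levels. It lay above both 2M libraries for 15 of the 38 enzymes (39.5%, against 32.1% of all genes) and below for 10 (26.3%, against 40.5%). Against all 4 libraries of the tested table, 14 enzymes lay above (36.8%, against 27.3%) and 10 below (26.3%, against 32.9%). These comparisons use the same 2M libraries as the test, and a difference of table and one of libraries cannot be told apart. Of the 14 above, Hpd, Fah, Ddc, Dao, Amt and Prodh2 were also above the 2M pair in the first 24M pair. Bcat2, Cbs and Shmt1 were below it there. The share of all genes above the 2M pair in both 24M pairs was not computed. Singly it was 20.8% in the first and 32.1% in the second. Across the 38 genes, the Pearson correlation of log2(FPKM + 1) was 0.996 within the 2M pair and 0.976 and 0.980 within the 24M pairs. It was 0.964 to 0.979 between the 2M pair and the first 24M pair, and 0.875 to 0.929 between libraries of different tables. Over 11418 genes the correlation between libraries of different tables was much the same, at 0.887 to 0.931. The 38 genes are not independent replicates.

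Of 11 ratios between partner enzymes, 8 lay outside the range of the tested table in both libraries of the second 24M pair. The share among ratios of other gene pairs was not computed, so whether this count is particular to these enzymes cannot be said. Of all single genes, a different measure from ratios, 27.3% lay above all 4 tested libraries in the second 24M pair and 32.9% below. Bckdhb and Hgd each enter more than 1 of the ratios, so the ratios are not separate observations. The ratio of Bckdha to Bckdhb was 2.18 to 2.63 in the 4 tested libraries and 4.33 and 4.52 in 24M_3 and 24M_4. The ratio of Mccc1 to Mccc2 was 0.536 to 0.653 and then 0.310 and 0.298, and that of Pcca to Pccb 0.355 to 0.387 and then 0.209 and 0.161. Each of these carboxylases is an assembly of both subunits. The ratio of Gldc to Amt was 0.746 to 1.01 and then 0.548 and 0.464, that of Prodh to Prodh2 4.90 to 5.57 and then 1.87 and 2.36, and that of Cbs to Cth 0.585 to 0.676 and then 1.198 and 1.05. The ratio of Dbt to Bckdhb was 2.54 to 2.92 and then 1.92 and 1.72, and that of Fah to Hgd 1.85 to 2.46 and then 1.39 and 1.56. For the other 3, 24M_4 lay within the tested range: Shmt1 to Shmt2 was 0.227 to 0.305 and then 0.416 and 0.238, Dmgdh to Sardh 0.586 to 0.816 and then 1.0004 and 0.777, and Hpd to Hgd 0.159 to 0.367 and then 0.392 and 0.197.

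**Figure D4:**
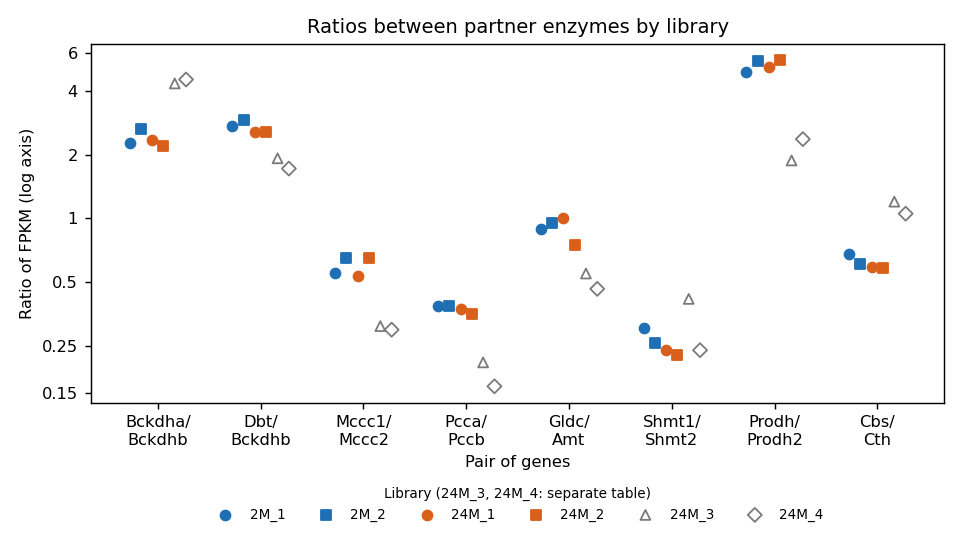
Ratio of FPKM (log axis) between enzymes that act in 1 complex, on the same substrate type or on neighbouring steps, for each library (symbols). Ratios of other gene pairs were not computed for comparison. The ratios of Fah to Hgd, Hpd to Hgd and Dmgdh to Sardh are not drawn. For Hpd to Hgd and Dmgdh to Sardh, 24M_4 lies within the tested range. The open symbols of 24M_3 and 24M_4 both lie outside the span of the 4 tested libraries in every pair of genes shown except Shmt1 and Shmt2, where 24M_4 lies within it at 0.238.

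Transcript properties moved with the difference between the tables. The mean log2(FPKM + 1) of the second 24M pair minus that of the other 4 libraries had a Pearson correlation of 0.49 with the GC content of the longest annotated transcript and of -0.36 with the log2 of the summed exon length, over the 38 genes. Over 11404 genes these were 0.20 and -0.24. Of the 19 enzymes above the median GC content, 9 lay above all 4 tested libraries and 3 below, and of the other 19, 5 lay above and 7 below. Hpd has a GC content of 54.1% and 2128 exon bases, and Acadsb 42.7% and 7179. For the change with age within the tested table the correlations were 0.13 with GC content and -0.18 with length. These are descriptions over genes that share their libraries, and the part of transcript composition in the difference was not tested.

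**Figure D5:**
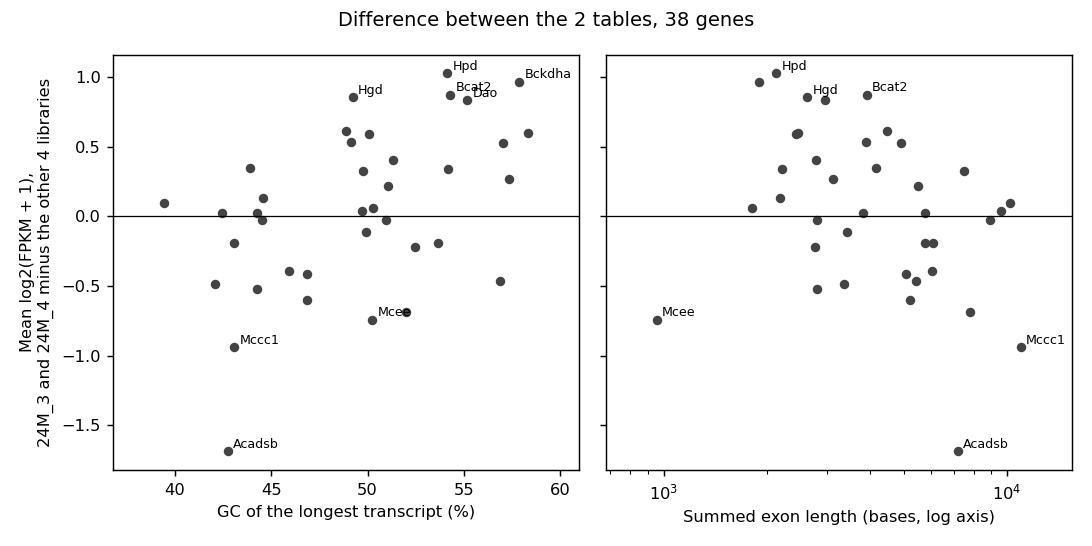
Difference in mean log2(FPKM + 1) between the second 24M pair and the other 4 libraries for each of the 38 enzymes (points), against GC content of the longest transcript in percent (left) and summed exon length in bases on a log axis (right). Hpd, at 1.03, and Bckdha lie highest, and Acadsb, at -1.69, and Mccc1 lowest.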

How the data were processed

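Kidney RNA-seq of 6 libraries was grouped by sample title. The authors deposited FPKM, as the file headers name them, in a table of 12666 genes with both ages and another of 13606 genes with 24M_3 and 24M_4. The submitters' processing notes name the build mm10, DESeq2 (1.20.0), HISAT2 (2.0.5) and featureCounts (1.5.0-p3) without saying what each was used for. The FPKM step and the sharing of reads between overlapping or similar genes are not stated in what was used here. Of the 38 genes, 24 overlap another annotated gene, 22 of them on the opposite strand. Symbols and positions came from GENCODE M21 on GRCm38, the assembly of mm10, matched by Ensembl gene ID.

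The test took genes that reached 1 FPKM in 2 or more of the 4 libraries, which all 38 enzymes did. The model, limma 3.58.1 under R 4.3.3, compared the ages on log2(FPKM + 1) with an intensity trend and robust variance, leaving 2 residual degrees of freedom. FPKM hold no read counts, so no interval comes from depth. Alternatives changed the pseudocount, low-value filter, scaling, variance model, replicate block and libraries. Values per library are given for enzymes past the threshold, the 6 smallest p in each direction, the most abundant of each route and those apart in the separate table; those of some others are added. The enzymes, lists and tests were chosen with earlier results of these data known.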

Additional observations from a re-analysis of the deposited data

Results flagged for a closer look

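Across the 4 libraries of 24M, which come from 2 tables, 3 of 38 enzymes had a library whose gap to the nearest other exceeded Dixon's 95% critical value for 4 samples. Chance gives this in about 1 in 20 groups whose 4 values come from 1 distribution, or 1.9 of 38. With values from 2 tables that differ in level for many enzymes, this rate need not hold. Ivd stood at 35.4 FPKM in 24M_2, against 67.9 to 71.3 in the other 24M libraries and 67.2 and 69.7 in 2M. Fah stood at 204 FPKM in 24M_4, against 154 to 161 in the other 24M libraries. Shmt2 stood at 61.6 FPKM in 24M_4, against 43.5 to 45.8 in the others. FPKM summed to 335723 in 24M_4, the highest total of the 6 libraries, and its part in the Fah and Shmt2 values was not tested.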

How the results depend on the processing

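With 2 libraries per age the calls depend on each library, and read depth is unknown. Over all genes, 87 were higher and 93 lower in 24M, which fell to 53 and 55 with no trend and no robust variance, and to 25 and 18 with the replicate number as a block. Leaving out a library gave 0 to 36 higher and 0 to 91 lower, with 0 in both directions without 2M_1 or 2M_2 (1215 and 1452 genes at an unadjusted p below 0.05). Same-numbered libraries did not deviate together (correlation -0.055 over 11418 genes, 2 pairs), so the numbers were not taken to pair the samples. Under the block 0 of the 38 enzymes were higher (Hpd, limma adjusted p = 0.0707), and of the other enzymes of the routes 0 were higher and 0 lower. Leaving out a library gave 0 to 1 of the 38 higher and 0 to 1 lower, the lower ones being Ivd without 24M_1 and Acadsb without 24M_2. For the other enzymes of the routes it gave 0 to 1 higher and 0 to 1 lower, and quantile normalization or no trend and no robust variance gave 0 higher. The limma adjusted p of Hpd ran from 0.0148 to 0.214 over 13 alternatives and passed in 9. The median log2 change of the 38 was 0.048 with equal medians, -0.0028 with quantile normalization and -0.0078 to 0.0497 with a library left out. Quantile normalization turned the sign of Bckdha (-0.0073), Aldh6a1 (-0.028) and Pccb (-0.026), and equal medians that of Dbt (0.011) and Cth (0.0046). With a library left out the sign turned for Bckdha (-0.030 to 0.063), Dbt (-0.039 to 0.0049), Ivd (-0.93 to 0.058), Mccc1 (-0.21 to 0.036), Auh (-0.051 to 0.12), Acad8 (-0.13 to 0.054), Pccb (-0.0081 to 0.034), Hgd (-0.089 to 0.031), Gstz1 (-0.040 to 0.43), Aldh4a1 (-0.027 to 0.084), Gldc (-0.021 to 0.24), Ddo (-0.012 to 0.063), Gcdh (-0.020 to 0.11), Aadat (-0.17 to 0.084) and Cth (-0.093 to 0.045), none of which had passed. The cause was not tested. A fit that leaves 1 library at an age assumes that it varies like those of the other age.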

Other observations

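Maob, which deaminates amines, had 1.06 FPKM in 2M_1 and 1.28 in 2M_2, then 2.38 in 24M_1 and 1.79 in 24M_2 (limma adjusted p = 0.176). Between the libraries of the separate table, which are both of 24M, 26 of the 38 enzymes were higher in 24M_4 than in 24M_3 and 12 lower, with a median ratio of 1.08 against 0.912 over all genes. Aadat had the highest ratio, 1.97, and Hpd the lowest, 0.567. This compares 2 libraries and has no replicate check.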
